A study of Bos taurus with 92 samples.

Results

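Genes for splicing factors and RNA helicases were examined in single bovine blastocysts and in the donor cells used for cloning. The members were all genes on the array whose symbol belongs to the HNRNP, SRSF, U2AF, SF3A or SF3B, SNRP, LSM, PRPF, DDX, DHX or RBM families. They numbered 83 of 4452 genes with a single symbol, on 111 probes, and 82 of them had enough values to be tested among 4398 genes. DHX38 was the member left out by the filter on missing values. The embryos were 14 blastocysts from artificial insemination (AI), 15 from in vitro fertilisation (IVF) and 15 made by nuclear transfer (NT), in which an oocyte receives the nucleus of a somatic cell. The donor cells were represented by 2 samples, and the labels do not name their cell type or say whether they were separate cultures. Strain, age of the embryos and culture conditions were not given in the sources used here. Sample and common reference RNA were hybridised together on 2 arrays per sample, with the dyes exchanged, and the samples had more rounds of linear amplification than the reference.

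As background, pre-mRNA splicing is carried out by the spliceosome, which is assembled on each intron from small nuclear ribonucleoproteins (snRNPs). Each snRNP holds an RNA in a ring of Sm proteins (encoded by some of the SNRP genes) or LSm proteins (encoded by some of the LSM genes). U2AF and the SF3 complexes recognise the 3′ end of the intron and its branch point, PRPF proteins belong to the snRNPs that form the catalytic core, and SR proteins (SRSF genes) and hnRNPs (HNRNP genes) bind the transcript and favour or repress splice sites. DDX and DHX helicases remodel RNA and its complexes in splicing, export, translation and ribosome assembly. RBM genes share only an RNA recognition motif in their name and differ widely in function. In the cow embryo, the blastocyst lives on transcripts of its own genome, which is activated a few cleavages after fertilisation.

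All levels given here are log2 ratios of a sample to the reference RNA, with the median probe of each array set to 0. They compare samples for a gene and give no ranking of genes by abundance. In whole embryos, fewer cells of a type and less RNA per cell cannot be told apart. That a positive value means more RNA in the sample is a likely reading, not a stated one. The mean of 12 fibroblast markers was 0.64 and 0.66 in the donor cell samples and between -2.17 and -1.54 in the embryos. That of 19 trophectoderm markers was between 1.05 and 2.41 in the embryos and at -0.36 and -0.15 in the donor cells. In AI embryos against donor cells, 7 of the fibroblast markers were lower and 1, THY1, higher. Of the trophectoderm markers 12 were higher and 1, TFAP2A, lower. A list of 8 inner cell mass and endoderm markers was also higher in the donor cells, with means of 0.74 and 0.87, against -0.74 to 0.12 in the embryos. These were the genes tested of 16 listed, and POU5F1, NANOG and SOX2 were not among them. In AI embryos against donor cells SPP1 (-3.55), LAMB1 (-2.15) and KLF4 (-1.28) were lower, and the other 5 were not called. No batch of hybridisation is named, and an effect of batch cannot be told apart from the kind of embryo. IVF embryos 1 and 11 correlated least with the mean of the other embryos of their kind, with r of 0.790 and 0.764, and counts without them are given where they bear on a result.

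Compared with AI embryos, IVF embryos had lower levels of several HNRNP, SRSF and LSM genes and of SNRPD3, SNRPB2, U2AF1, SF3B5 and SF3B6. They had higher levels of several RBM genes, PRPF8 and SF3B3. Of the 82 members, 12 were higher and 18 lower in IVF embryos (limma, Benjamini-Hochberg adjusted p under 0.05 over all genes). HNRNPC, whose level in IVF embryos was known when the members were chosen, is among the 18, and without it 12 were higher and 17 lower of 81. These were 14.8% and 21.0% of the 81, against 13.2% and 15.9% of all genes tested, so that the share higher lay near the background. The median difference was -0.05 for the 82 members and 0.01 for all genes. Without IVF embryos 1 and 11 the counts were 12 higher and 16 lower, and the calls of PRPF6, SRSF7 and SNRPB2 were lost. With the ratios as deposited, not centred, the counts were 5 higher and 15 lower. By family, among HNRNP genes 0 of 11 were higher and 5 lower, where the 5 include HNRNPC and HNRNPA2B1, whose 2 probes were called in opposite directions. The same counts were 0 and 3 of 7 SRSF genes, 1 and 3 of 7 U2AF and SF3 genes, 0 and 2 of 4 SNRP genes and 1 and 4 of 6 LSM genes. PRPF genes had 2 higher and 0 lower of 4, DDX genes 1 and 1 of 17, DHX genes 1 and 0 of 6, and RBM genes 6 and 0 of 20. Markers of cell types also moved with this comparison. Of 8 inner cell mass and endoderm markers, LAMB1 (1.09) and SALL4 (0.49) were higher and STAT3 (-1.42) and FN1 (-0.82) lower in IVF than in AI embryos, and their mean ran from -0.74 to -0.14 in IVF and from -0.58 to 0.06 in AI embryos. Of 19 trophectoderm markers 2 were higher and 3 lower, with a mean of 1.56 to 2.08 in IVF and 1.64 to 2.41 in AI embryos. Of 4 genes listed as markers of cumulus and granulosa cells, which surround the oocyte, HSD3B1 and CYP11A1 were higher in IVF than in AI embryos. CYP19A1 (0.06) and TNFAIP6 (0.11) were not called. HSD3B1 was also 3.13, 4.12 and 2.79 higher in AI, IVF and NT embryos than in donor cells. TNFAIP6 was lower there by -2.81, -2.69 and -2.69, and the other 2 were not called. Whether these genes mark such cells in a blastocyst was not tested. The mean of the 4 ran from -0.54 to 0.43 in IVF and from -0.96 to 0.12 in AI embryos. The part of these markers in the result was not tested.

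NT embryos stood on the other side of IVF embryos for many of these genes. In NT against IVF embryos 21 members were higher and 11 lower, against 14.1% and 10.1% of all genes, with a median difference of 0.07 for members and 0.00 for all genes. As deposited the counts were 42 higher and 1 lower, where the median of all genes itself moved to 0.38. Without IVF embryos 1 and 11, 28 of the 32 calls were kept, and those of DDX23, RBM14, RBM4B and RBM8A were lost. By family, HNRNP genes had 5 higher and 0 lower, SRSF 3 and 1, U2AF and SF3 3 and 1, SNRP 0 and 0, LSM 3 and 0, PRPF 0 and 1, DDX 3 and 3, DHX 1 and 1, and RBM 3 and 4. Without HNRNPC 20 members were higher and 11 lower. In the same comparison 7 of 19 trophectoderm markers were lower and 2 higher, with a mean of 1.05 to 1.91 in NT and 1.56 to 2.08 in IVF embryos, and 3 of 8 inner cell mass and endoderm markers were higher and 2 lower, with a mean of -0.45 to 0.12 in NT and -0.74 to -0.14 in IVF embryos. Of the 4 cumulus and granulosa markers HSD3B1 was lower, with a difference of -1.34, and the list mean ran from -0.94 to 0.08 in NT embryos. Their part in the counts was not tested. This comparison and that of IVF with AI embryos share the 15 IVF embryos, so that their values are given side by side and not as independent results.

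**Figure D1:**
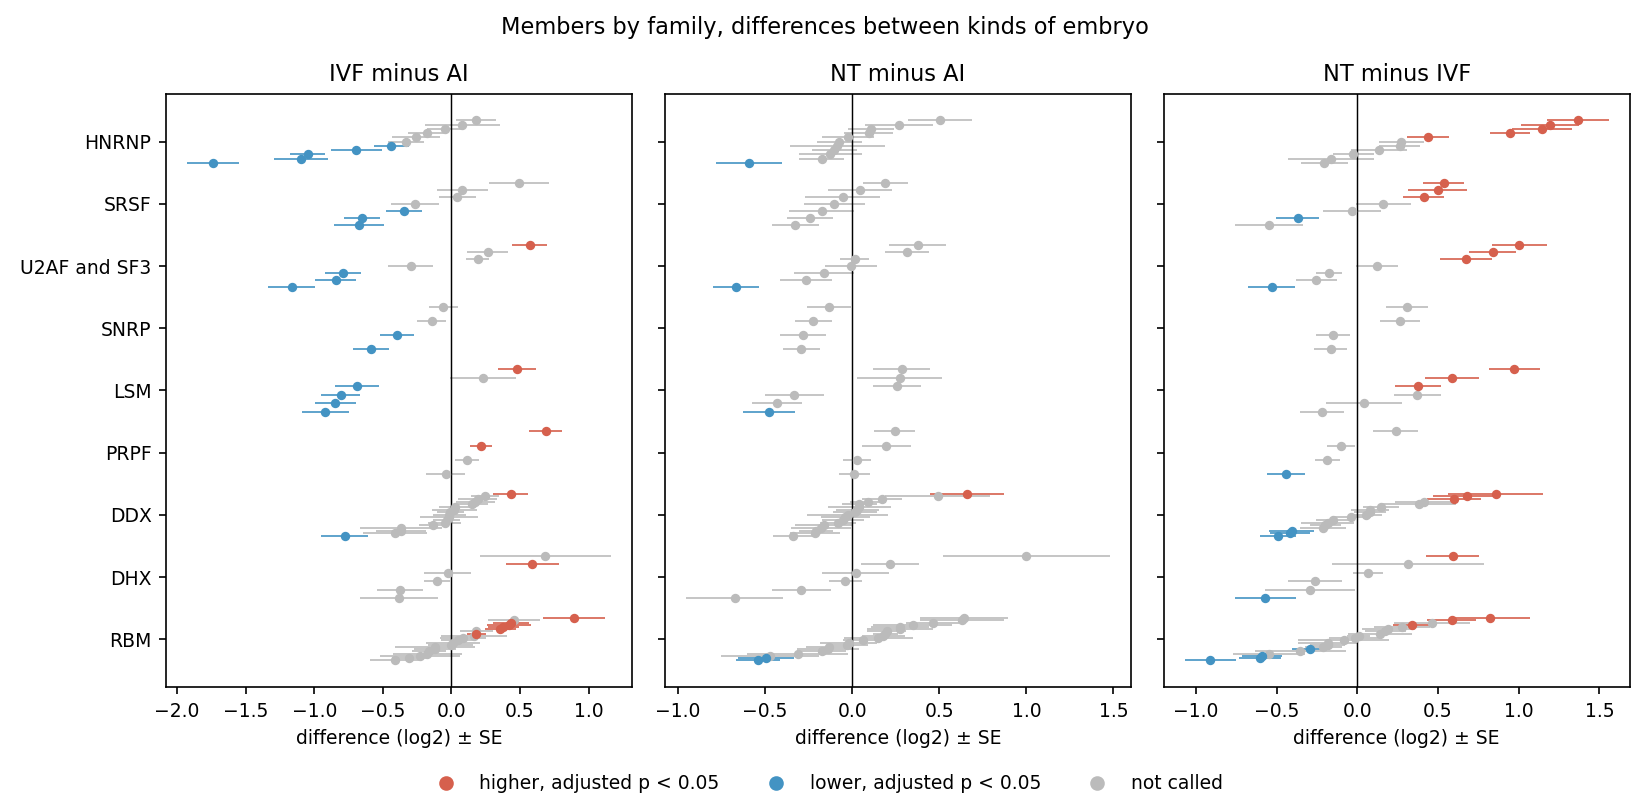
Difference in log2 ratio (horizontal axis, with SE) for each of the 82 members, grouped by family (vertical axis), in the 3 comparisons of embryo kinds. Coloured points passed an adjusted p of 0.05 (limma). In IVF against AI embryos the called HNRNP, SRSF and SNRP genes lie left of 0 and the called PRPF and RBM genes right of it, and in NT against AI embryos 6 members are coloured.

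HNRNPC (Entrez Gene 510852, 1 probe) encodes a core hnRNP protein that binds uridine-rich stretches of nascent transcripts and competes there with U2AF. It was singled out for its level in IVF embryos, so that its values against them are a description without a test. Its lowest, median and highest values were -0.45, 0.31 and 1.13 in AI embryos, -2.29, -1.20 and -0.64 in IVF embryos, and -1.21, -0.26 and 0.85 in NT embryos. The donor cell samples were at -1.85 and -1.56. IVF and AI embryos did not overlap, whereas NT embryos spanned the upper part of the IVF range and most of the AI range. The mean was 0.40 ± 0.48 (SD, n = 14) in AI, -1.34 ± 0.51 (SD, n = 15) in IVF and -0.20 ± 0.58 (SD, n = 15) in NT embryos. The difference of IVF from AI embryos was -1.74 ± 0.19 (SE), a 3.33-fold lower level, and stayed between -1.75 and -1.54 in the alternatives run. NT embryos were 1.14 ± 0.19 (SE) above IVF embryos. The order AI, NT, IVF and donor cells had 1 pair of neighbours whose difference was within its error: IVF embryos lay 0.36 ± 0.38 (SE) above donor cells.

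HNRNPH2 and HNRNPH3 encode hnRNPs that bind runs of G in RNA. HNRNPH2 ran from 0.22 over a median of 0.80 to 1.36 in AI, from -1.28 over -0.12 to 0.45 in IVF, and from 0.45 over 0.69 to 1.04 in NT embryos. All 15 IVF embryos were below the AI mean, and the lowest NT embryo was just above the highest IVF embryo. The difference was -1.05 ± 0.13 (SE) in IVF against AI embryos (limma adjusted p = 3.33e-08) and 0.95 ± 0.13 in NT against IVF embryos (adjusted p = 2.56e-07). HNRNPH3 ran from 0.16 over 1.28 to 1.96 in AI, from -1.29 over 0.21 to 1.47 in IVF, and from 0.73 over 1.47 to 2.01 in NT embryos. A single IVF embryo lay above the AI mean. HNRNPH3 was lower by -1.10 ± 0.20 (SE) in IVF than in AI embryos (limma adjusted p = 2.59e-05) and 1.36 ± 0.19 higher in NT than in IVF embryos (adjusted p = 8.41e-07). HNRNPU, which also binds chromatin, was lower in IVF than in AI embryos, with a difference of -0.44, and both of its probes gave that value. Its difference of 0.26 in NT against IVF embryos was not called. HNRNPAB was 0.44 higher in NT than in IVF embryos. The other 5 members of the family, HNRNPA0, HNRNPD, HNRNPDL, HNRNPK and HNRNPL, were called in none of the comparisons between embryos.

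HNRNPA2B1 (Entrez Gene 507564) encodes a further core hnRNP and had 2 probes that went in opposite directions between IVF and AI embryos. Probe 1 ran from -0.81 over 0.35 to 0.80 in AI, from -3.09 over -2.05 to -1.24 in IVF, and from -0.72 over 0.61 to 1.44 in NT embryos. For this probe the IVF embryos lay wholly below both other kinds. Its difference was -2.34 ± 0.18 (SE) in IVF against AI embryos (limma adjusted p = 3.59e-13, over all probes) and 2.65 ± 0.18 in NT against IVF embryos (adjusted p = 1.34e-15). Probe 2 ran from -3.27 over -2.18 to -0.33 in AI, from -3.17 over -0.65 to -0.10 in IVF, and from -2.20 over -1.17 to -0.31 in NT embryos, with all 3 ranges overlapping. It was 0.96 ± 0.28 (SE) higher in IVF than in AI embryos (limma adjusted p = 0.00850), and its difference of -0.26 ± 0.27 in NT against IVF embryos was not called (adjusted p = 0.550). The donor cells also stood apart by probe, at -2.21 and -1.88 with probe 1 and at 0.70 and 0.73 with probe 2. The mean of both probes, which is the value of the gene, was -0.69 ± 0.18 (SE) in IVF against AI embryos (adjusted p = 0.00347) and 1.20 ± 0.18 in NT against IVF embryos (adjusted p = 2.72e-06). These gene values stand for neither probe. Why the probes differ was not tested.

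**Figure D2:**
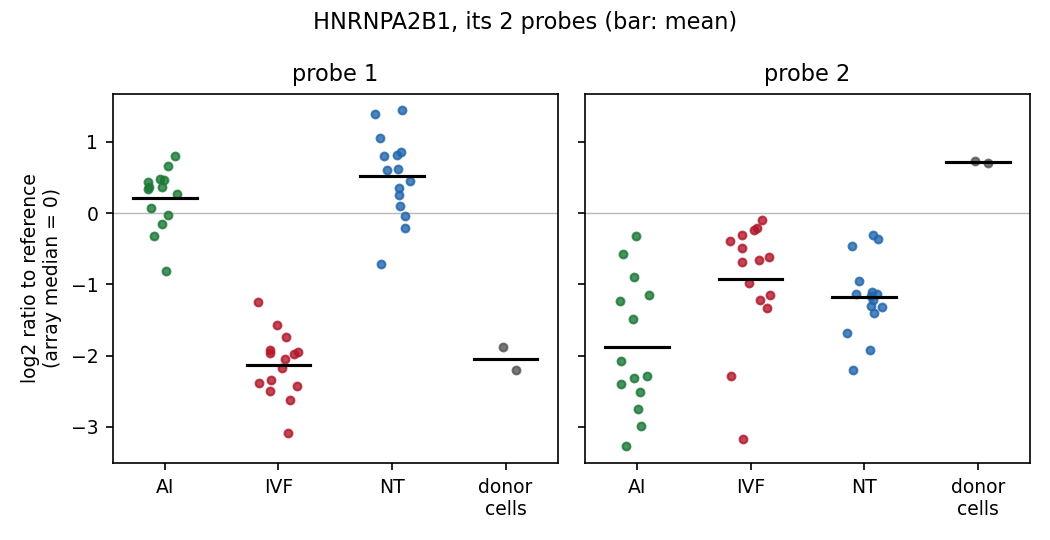
Log2 ratio to the reference (vertical axis) of the 2 probes of HNRNPA2B1 in each AI, IVF, NT and donor cell sample (horizontal axis). Points are samples and bars are means. With probe 1 the IVF embryos lie below all AI and NT embryos, and with probe 2 the kinds of embryo overlap.

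At the 3′ splice site, U2AF1 encodes the U2AF subunit that reads the AG at the end of the intron, and SF3B6 the subunit of SF3B that contacts the branch point. U2AF1 ran from 0.05 over 0.78 to 1.31 in AI, from -0.98 over -0.02 to 0.52 in IVF, and from 0.08 over 0.72 to 1.29 in NT embryos. Each IVF embryo was below the AI mean. The difference was -0.84 ± 0.15 (SE) in IVF against AI embryos (limma adjusted p = 2.07e-05) and 0.84 ± 0.15 in NT against IVF embryos (adjusted p = 2.48e-05). SF3B6 ran from -0.39 over 0.08 to 0.59 in AI, from -2.72 over -0.93 to -0.41 in IVF, and from -0.54 over -0.18 to 0.56 in NT embryos. IVF and AI embryos did not overlap, by a narrow gap. SF3B6 was lower by -1.17 ± 0.17 (SE) in IVF than in AI embryos (limma adjusted p = 1.04e-06) and 1.00 ± 0.17 higher in NT than in IVF embryos (adjusted p = 1.44e-05). Apart from HNRNPC, SF3B6 was the 1 member of 81 without overlap between IVF and AI embryos, where 0.523% of all genes had none, and HNRNPH2 the 1 member without overlap between NT and IVF embryos, against 0.341%.

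The other SF3B genes had other patterns. SF3B5, a small subunit, ran from -1.55 over -0.99 to -0.41 in AI, from -2.15 over -1.78 to -1.19 in IVF, and from -2.03 over -1.77 to -0.73 in NT embryos. It was low in both IVF and NT embryos, with differences from AI embryos of -0.79 ± 0.13 (SE, limma adjusted p = 7.87e-06) and -0.67 ± 0.13 (adjusted p = 0.000528). SF3B3, a large scaffold subunit, was 0.57 higher in IVF than in AI embryos. SF3B4 was lower by -0.53 and SF3B1, which holds the branch site, higher by 0.67 in NT than in IVF embryos. The 3 probes of SF3B1 gave 0.07 to 1.49 there, with 1 of them called, and with 1 probe per gene the call was lost. U2AF2, the partner of U2AF1 that binds the polypyrimidine tract, differed by 0.19 in IVF from AI embryos and by -0.17 in NT from IVF embryos and was not called.

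**Figure D3:**
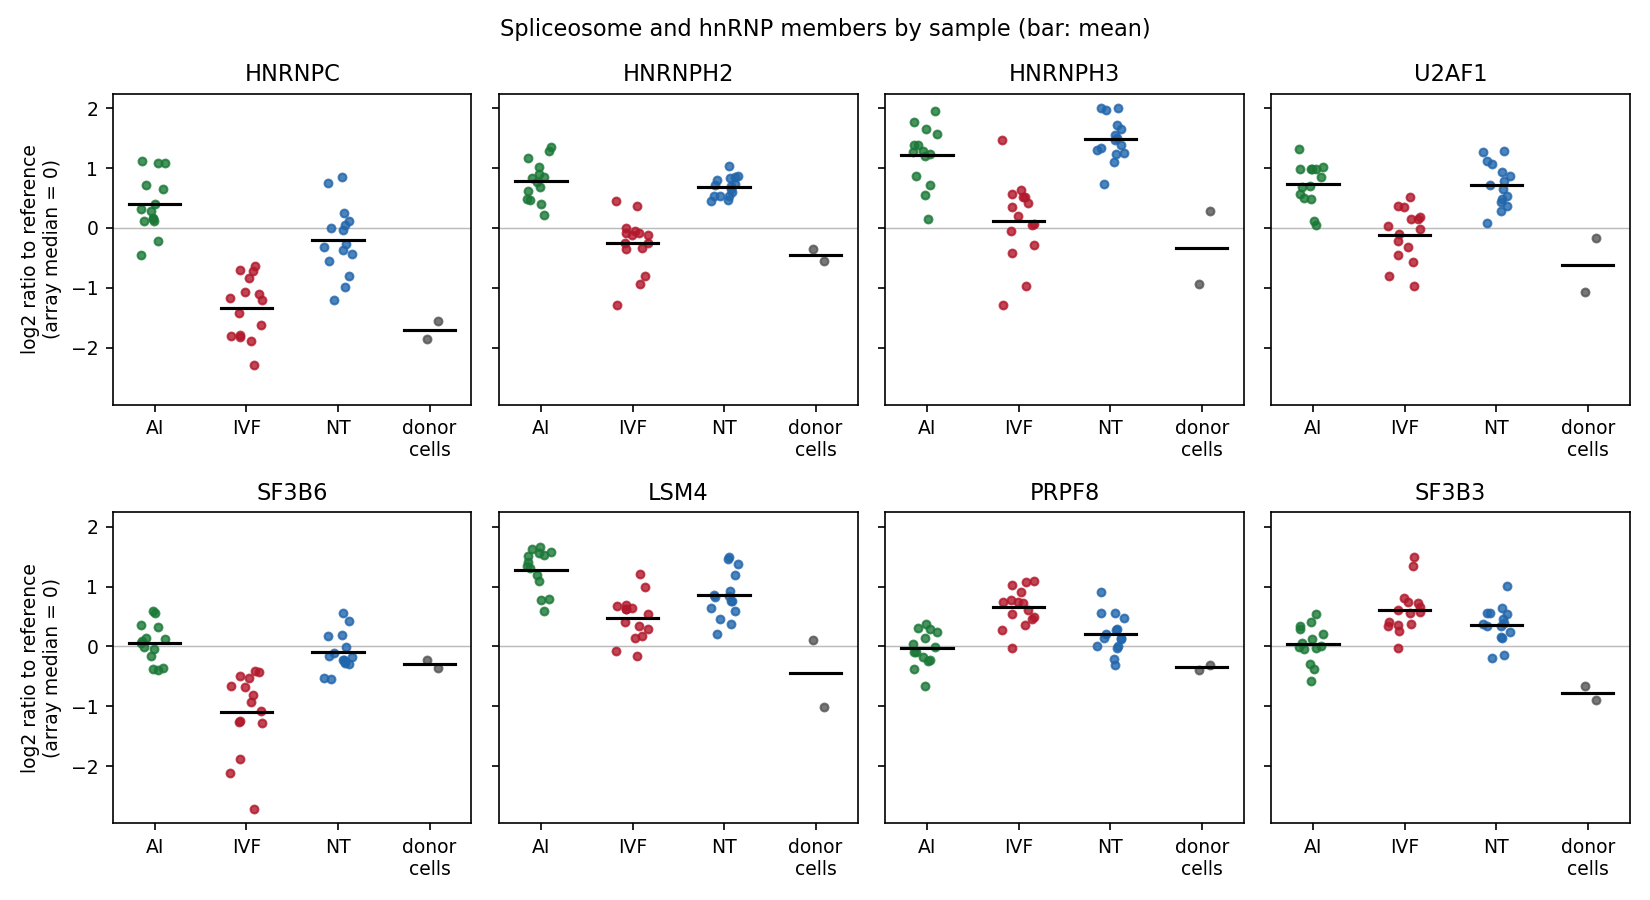
Log2 ratio to the reference (vertical axis) of 8 members in each AI, IVF, NT and donor cell sample (horizontal axis). Points are samples and bars are means. HNRNPC and SF3B6 show no overlap between AI and IVF embryos, and PRPF8 and SF3B3 have higher means in IVF than in AI embryos.

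Among snRNP proteins, LSM4, LSM6 and LSM8 encode parts of the ring that holds U6 RNA. LSM4 ran from 0.59 over 1.38 to 1.67 in AI, from -0.16 over 0.54 to 1.21 in IVF, and from 0.22 over 0.83 to 1.49 in NT embryos. NT embryos lay between the other kinds and overlapped both. LSM4 was lower by -0.81 ± 0.14 (SE) in IVF than in AI embryos (limma adjusted p = 2.58e-05) and 0.38 higher in NT than in IVF embryos. LSM8 ran from -0.51 over 0.13 to 1.49 in AI, from -1.12 over -0.73 to 0.08 in IVF, and from -1.18 over -0.29 to 0.44 in NT embryos. All 15 IVF embryos were below the AI mean, with a difference of -0.85 ± 0.15 (SE, limma adjusted p = 2.10e-05). Of its 2 probes, 1 gave -1.31 and was called and the other gave -0.39 and was not. LSM6 was lower by -0.92 in IVF than in AI embryos and 0.59 higher in NT than in IVF embryos.

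LSM14A, a component of cytoplasmic P-bodies and not of a snRNP, ran from 1.10 over 1.68 to 2.56 in AI, from -0.02 over 1.12 to 1.77 in IVF, and from 1.20 over 2.14 to 2.48 in NT embryos. IVF embryos were the lowest kind and NT embryos the highest. The difference was -0.69 in IVF against AI embryos and 0.97 ± 0.16 (SE) in NT against IVF embryos (limma adjusted p = 1.01e-05). LSM12 went the other way and was 0.48 higher in IVF than in AI embryos. Of the SNRP genes, SNRPD3, which encodes an Sm protein, was lower by -0.59 in IVF than in AI embryos. SNRPB2, a protein of the U2 snRNP outside the Sm ring, was lower by -0.40. SNRPA and SNRPD2 were not called.

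PRPF8, the large U5 protein at the centre of the spliceosome, was higher in IVF embryos. It ran from -0.67 over -0.05 to 0.38 in AI, from -0.03 over 0.72 to 1.10 in IVF, and from -0.31 over 0.15 to 0.92 in NT embryos. All 15 IVF embryos were above the AI mean, with a difference of 0.69 ± 0.12 (SE, limma adjusted p = 1.48e-05), and NT embryos were -0.44 below IVF embryos. PRPF6, another U5 protein, was 0.21 higher in IVF than in AI embryos, though neither of its 2 probes was called alone. PRPF31 and PRPF4B were called in none of the comparisons between embryos.

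SR proteins bind exonic enhancers and promote the use of nearby splice sites. In IVF against AI embryos SRSF1 was lower by -0.67, SRSF3 by -0.65 and SRSF7 by -0.34. NT embryos were above IVF embryos by 0.50, 0.41 and 0.53 for the same genes, with SRSF2 at -0.37 as the exception called in the opposite direction. SRSF11 had differences of 0.49 (limma adjusted p = 0.0812) and -0.55 (adjusted p = 0.0542) in these comparisons and was not called. SRSF6 and SRSF9 were not called either.

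Of 17 DDX genes, 15 were not called in IVF against AI, 16 in NT against AI and 11 in NT against IVF embryos. Of 6 DHX genes, 5, 6 and 4 were not called in the same comparisons. Of all 4398 genes, 3116, 4048 and 3337 were not called, so that most genes of any kind were not called. DDX5, a helicase of transcription and splicing, was lower by -0.78 in IVF than in AI embryos, where its 3 probes were each called lower, and 0.60 higher in NT than in IVF embryos. DDX17, its close paralog, exceeded the IVF level in NT embryos by 0.86, and its difference of -0.37 in IVF against AI embryos was not called. DDX56, which acts in ribosome assembly, was 0.43 higher in IVF than in AI embryos and lower by -0.42 in NT than in IVF embryos. DDX21, another nucleolar helicase, and DDX23, a U5 snRNP helicase, were lower by -0.49 and -0.41 in NT than in IVF embryos, and DDX51, also of ribosome assembly, was 0.68 higher. DHX36, which unwinds G-quadruplexes, was 0.59 higher in IVF than in AI embryos and lower by -0.57 in NT than in IVF embryos. DHX29, a helicase of translation initiation, was 0.59 higher in NT than in IVF embryos.

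The 6 RBM genes called in IVF against AI embryos were all higher. They were RBM33 with a difference of 0.89, RBM39, a splicing coactivator, with 0.43, RBM45 with 0.42, RBM4, a regulator of alternative splicing, with 0.38, RBM14, a paraspeckle protein, with 0.36, and RBM17, a 3′ splice site factor, with 0.18. RBM45 ran from -0.51 over 0.44 to 0.94 in AI, from 0.22 over 0.78 to 1.27 in IVF, and from -1.15 over -0.19 to 0.78 in NT embryos. It was high in IVF and low in NT embryos, with a difference of -0.91 ± 0.16 (SE) in NT against IVF embryos (limma adjusted p = 2.48e-05). The other RBM genes lower in NT than in IVF embryos were RBM39 at -0.60, RBM47 at -0.59 and RBM14 at -0.30, and those higher were RBM4B at 0.82, RBM38 at 0.58 and RBM8A, a core protein of the exon junction complex, at 0.34. For RBM39 the 2 probes gave -1.25 and 0.04 in NT against IVF embryos. In IVF against AI embryos the 2 probes gave 0.74 and 0.13 for RBM39, 0.12 and 0.64 for RBM4, and 0.12 and 0.24 for RBM17. In NT against IVF embryos they gave 0.03 and 0.65 for RBM8A, and 0.40 and 0.77 for RBM38. In each of these pairs 1 probe was called. With 1 probe per gene the calls of RBM4 and RBM38 were lost, and that of RBM8A was kept in 10 of 16 alternatives. RBM4 and RBM4B are near-identical genes, and how far a cDNA probe separates them was not tested.

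Leaving HNRNPC aside, 15 of the 29 calls in IVF against AI embryos were kept in all 14 alternatives run for each gene: HNRNPH2, HNRNPH3, HNRNPA2B1, U2AF1, SF3B6, SF3B5, SF3B3, LSM4, LSM6, LSM8, LSM14A, PRPF8, SRSF1, DDX5 and RBM33. The least stable were SRSF7, kept in 7 of 14, and PRPF6, RBM17 and RBM45, each kept in 9 of 14. Of the 31 calls in NT against IVF embryos, 7 were kept in all 16: HNRNPH2, HNRNPH3, HNRNPA2B1, U2AF1, SF3B6, LSM14A and RBM45. For HNRNPA2B1 and LSM8, the alternative with 1 probe per gene used probe 1, and none used probe 2 alone. In IVF against AI embryos, probe 2 of HNRNPA2B1 was called in the opposite direction and that of LSM8 was not called.

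Few members, and few genes of any kind, were called between NT and AI embryos. In NT against AI embryos 1 member was higher and 5 were lower. These were 1.22% and 6.10% of the 82 members, against 3.55% and 4.41% of all genes, so that together they lay near the background. The median difference was -0.03 for members and 0.02 for all genes. SF3B5, given above, had the smallest adjusted p, and 14 of 15 NT embryos were below the AI mean. RBM47, an RNA-binding protein of epithelial splicing and RNA editing, ran from 1.52 over 1.96 to 2.70 in AI, from 1.53 over 2.08 to 2.61 in IVF, and from 0.78 over 1.49 to 2.11 in NT embryos. It was lower by -0.54 ± 0.13 (SE) in NT than in AI embryos (limma adjusted p = 0.00421), with 14 of 15 NT embryos below the AI mean. The trophectoderm markers, an epithelial cell type, had 4 of 19 genes lower and 0 higher in the same comparison, with a mean of 1.05 to 1.91 in NT and 1.64 to 2.41 in AI embryos, and their part in the difference of RBM47 was not tested.

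The other calls in NT against AI embryos lay close to the threshold. LSM8 was lower by -0.48 ± 0.15 (SE, limma adjusted p = 0.0385), HNRNPC by -0.59 ± 0.19 (adjusted p = 0.0422) and RBM45 by -0.49 ± 0.16 (adjusted p = 0.0479). DDX51 ran from -0.43 over 0.94 to 1.71 in AI, from -0.28 over 1.02 to 1.95 in IVF and from 0.71 over 1.51 to 3.20 in NT embryos, and was 0.66 ± 0.21 (SE) higher in NT than in AI embryos (limma adjusted p = 0.0430). Each of the 6 calls was lost in at least 2 of 15 alternatives, HNRNPC in 6 of them. With the ratios as deposited 37 members were higher and 0 lower, where the median difference of all genes itself moved to 0.44, and 1 of the 6 calls, that of DDX51, was kept.

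Against donor cells most called members were higher in the embryos, among them 6 of 7 SR protein genes. AI embryos had 29 members higher and 2 lower, against 20.5% and 16.5% of all genes. IVF embryos had 22 higher and 6 lower, against 18.3% and 16.0%, and NT embryos 27 higher and 3 lower, against 19.9% and 15.4%. The median difference of the members was 0.28 in each comparison, and that of all genes 0.01, 0.02 and 0.03. As deposited, the counts were 17 higher and 4 lower for AI, 13 and 6 for IVF and 27 and 2 for NT embryos. These 3 comparisons share the same 2 donor cell samples, so that they are not independent of each other. Without donor cell sample 8 the members higher were 16 for AI, 15 for IVF and 16 for NT embryos, and without sample 9 they were 20, 16 and 21.

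Of the SRSF genes 6 of 7 were higher in each kind of embryo, all but SRSF11. SRSF7 was at -1.99 and -1.54 in the donor cells, and its lowest embryo was at 0.00 in AI, -0.74 in IVF and 0.16 in NT. No embryo reached down to the donor cells. Its differences were 2.36 ± 0.26 (SE), 2.02 ± 0.26 and 2.55 ± 0.26 for AI, IVF and NT embryos (limma adjusted p = 3.26e-10, 1.85e-08 and 3.28e-11). SRSF6 was close to the threshold, with adjusted p of 0.0498, 0.0330 and 0.0394. In AI, IVF and NT embryos, HNRNP genes had 6, 1 and 4 of 11 higher, SNRP genes 3, 2 and 2 of 4, LSM genes 3, 2 and 3 of 6, and DDX genes 4 of 17 in each. U2AF and SF3 genes had 3, 2 and 2 of 7 higher, PRPF genes 1, 2 and 1 of 4, and DHX genes 0 of 6 in each. RBM genes had 3, 3 and 5 of 20 higher and 2, 2 and 3 lower. The other calls of lower members were 1 each in the DDX, DHX, PRPF and U2AF and SF3 families, all in IVF embryos.

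Members called against donor cells in the same direction in all 3 kinds of embryo were 18 higher and 2 lower, against 13.8% and 11.9% of all genes. RBM47 had the largest difference among them, with donor cells at -2.82 and -2.62 and the lowest embryo of any kind at 0.78. It was higher by 4.72 ± 0.26 (SE) in AI, 4.77 ± 0.26 in IVF and 4.18 ± 0.26 in NT embryos (limma adjusted p = 1.52e-20, 1.03e-20 and 1.48e-18). DDX51 was 1.89, 1.87 and 2.55 higher, and SNRPD3 was 2.22, 1.64 and 1.94 higher. The 2 genes lower in embryos were RBM33, with donor cells at 0.24 and 0.56, and RBM3, a protein induced by cold, with donor cells at 0.03 and 0.40. The highest embryo was at -0.28 for RBM33 and at -1.34 for RBM3. RBM33 differed by -3.21, -2.32 and -2.87 and RBM3 by -2.61, -3.02 and -2.75 in AI, IVF and NT embryos. The calls of these 6 genes were kept in all alternatives run, including those that left out 1 donor cell sample, in which the remaining sample is assumed to vary like the embryos.

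**Figure D4:**
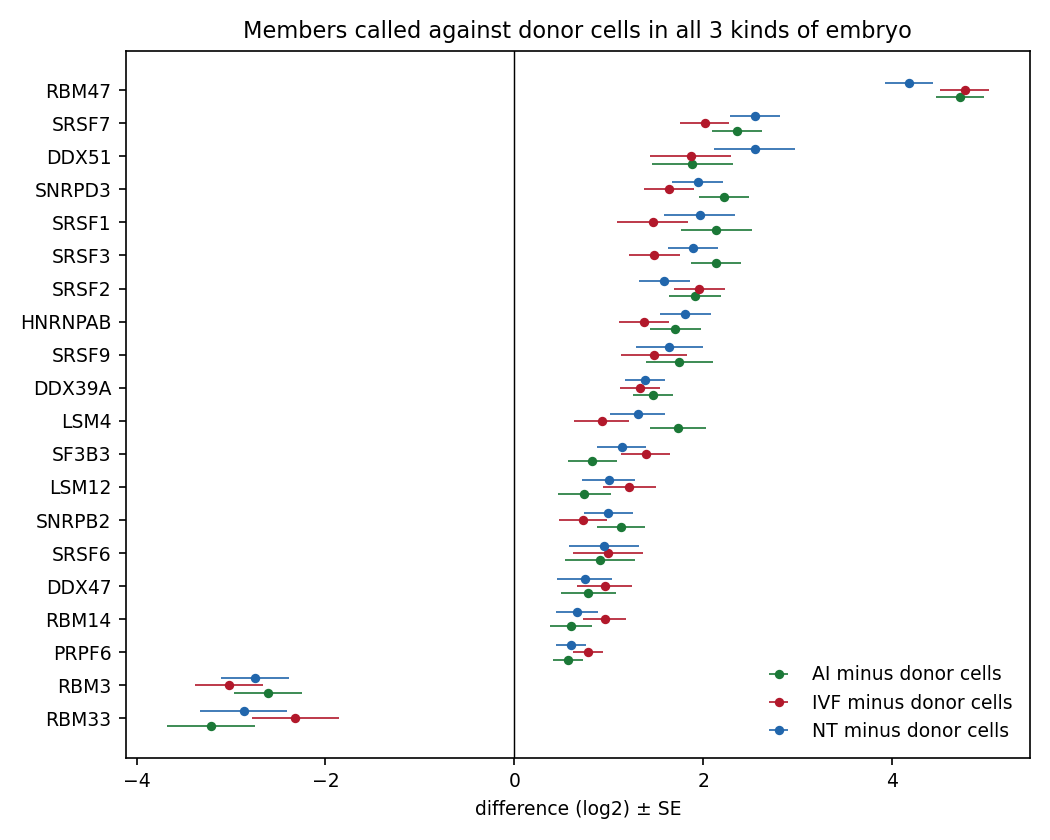
Difference in log2 ratio (horizontal axis, with SE) of AI, IVF and NT embryos from the donor cells for the 20 members called in all 3 comparisons (vertical axis). RBM47 lies above 4 in each kind of embryo, RBM3 and RBM33 lie below -2, and the 3 comparisons share the 2 donor cell samples.

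Other genes of the pathway, from lists of splicing and mRNA processing factors and of helicases outside these families, moved in both directions too. Of 66 such processing genes tested, 11 were higher and 12 lower in IVF than in AI embryos, 1 and 2 in NT than in AI embryos, and 13 and 6 in NT than in IVF embryos. The shares over all genes, given above, were 13.2% and 15.9%, 3.55% and 4.41%, and 14.1% and 10.1%, so that these counts lay near the background. The genes named next were chosen after their values were seen. PABPN1, the nuclear poly(A)-binding protein, differed by -1.65 in IVF against AI and by 1.67 in NT against IVF embryos. SNU13, BCAS2 and PPIH, which belong to the tri-snRNP or the complexes that act with it, were lower by -0.99, -1.04 and -1.11 in IVF than in AI embryos, and SRPK2, a kinase of SR proteins, by -0.89. Among the 11 higher there were PCBP1, a poly(C)-binding protein, with 0.74, CASC3, a protein of the exon junction complex, with 0.66, PCF11, a factor of 3′ end cleavage, with 0.66, SRRT with 0.60 and AQR, a helicase of the spliceosome, with 0.56. Of 10 other helicases 2 were higher and 2 lower in IVF than in AI embryos, 0 and 0 in NT than in AI embryos, and 3 and 2 in NT than in IVF embryos. AQR, EIF4A3, UPF1 and SNRNP200 belong to both lists, so that the counts are not separate, and AQR is counted in both. EIF4A1, the helicase of translation initiation, differed by -1.52 in IVF against AI and by 1.58 in NT against IVF embryos, and MTREX, a helicase of the nuclear exosome, by 0.48 and -0.42.

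Within a kind of embryo, the median SD between embryos was 0.36 in AI, 0.40 in IVF and 0.37 in NT for members, and 0.44, 0.45 and 0.41 for all genes. DHX15, the helicase that takes spliced complexes apart, had the largest SD of the members in each kind. It ran from -2.22 over -1.52 to 2.22 in AI, from -1.69 over -0.69 to 3.11 in IVF, and from -2.23 over -0.14 to 2.82 in NT embryos. Its difference of 1.00 ± 0.48 (SE) in NT against AI embryos was not called (limma adjusted p = 0.192). The median of all members in an embryo ran from 0.04 over 0.20 to 0.45 in AI, from -0.03 over 0.15 to 0.36 in IVF and from 0.05 over 0.22 to 0.44 in NT embryos, and was -0.19 and -0.13 in the donor cells.

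After the mean of each kind was removed, correlations between members over embryos were centred near 0. Over 3321 pairs of members the median Pearson r was 0.02, with a range from -0.62 to 0.65. The members most like HNRNPC over the 44 embryos were RBM8A with r = 0.42, HNRNPU with 0.37, HNRNPH2 with 0.35, DDX1 with 0.35 and DHX29 with 0.34. These are descriptions over embryos that share the reference RNA and the amplification protocol, and HNRNPA2B1, U2AF1 and SF3B6 had r of 0.11, -0.21 and 0.28. The NT embryos carry labels that begin with 2_ (8 embryos) or 3_ (7 embryos), without explanation. Between these sets 0 of 82 members and 0 of 4398 genes were called by limma, and 9 members and 347 genes had an unadjusted p under 0.05.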

How the data were processed

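Single blastocysts and donor cells were measured on a custom 2-colour cDNA array. The authors deposited 1 log2 ratio of the dyes for each spot, per the file headers; scanner software, background correction and normalisation were not given in the sources used here, and no intensities were held. The table had 16416 spots in adjacent pairs, which gave 8208 probes. A fill value of 16.61 (2657 cells) was set to missing, and 4.39% of cells were empty. Array medians ran from -2.14 to 1.45, so each array was centred on its median, after a change of sign where Cy3 labelled the sample. The median r of duplicate spots was 0.793. Arrays of 1 sample had r of 0.548 to 0.764 in embryos and 0.248 to 0.325 in donor cells.

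Spots were averaged, then both arrays of a sample, both of which had to have a value. Probes needed a value in 50% of each kind of embryo and in both donor cell samples (7992 probes), and probes of a gene were averaged (4398 genes). One model of 4 group means over 46 samples was fitted with limma 3.58.1 in R 4.3.3, with a Benjamini-Hochberg threshold of 0.05, and p-values measure the spread between these samples. Gene symbols came from the platform annotation, and all 83 members matched RefSeq by Entrez Gene ID. Data for IVF against AI were also simulated over 4398 genes, with 100 genes changed at each size, independent noise for each gene and no batch. There, 47% of changes of 0.5 and 89% of changes of 1 (log2) were recovered, and 4.23% of the simulated calls were false. With these settings the simulation cannot give the false share of the calls in the real data.

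Members and gene lists were chosen with earlier results of these data known. By rule, each member called between kinds of embryo was named, with full statistics for the 8 of smallest adjusted p in each comparison, and against donor cells the 4 largest rises and falls called in all 3 kinds (2 falls existed). HNRNPC was always given, as were the 5 members most like it. Genes not called were named beside them to complete a family. Alternatives were ratios as deposited, quantile and spread scaling, each dye alone, other filters, 1 probe per gene, first spots, sample sets left out and a replicate block. RNA or protein sequences were not used here. The number of arrays limits the precision.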

Additional observations from a re-analysis of the deposited data

How the results depend on the processing

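With the ratios as deposited, the median difference of all genes moved by over 0.1 in NT against AI (0.44) and NT against IVF (0.38), and in AI, IVF and NT against donor cells (-0.20, -0.14 and 0.25). The member counts were then 5 higher in IVF against AI, 37 higher and 0 lower in NT against AI, 42 higher and 1 lower in NT against IVF, 17 higher and 4 lower in AI against donor cells, and 13 higher in IVF against donor cells. The direction of 2 calls in NT against IVF reversed there, RBM14 to 0.0821 and SRSF2 to 0.00845. With the sample in Cy5 alone, 5 members were higher in IVF against AI, 0 higher and 11 lower in NT against AI, 18 and 4 in AI, 14 and 10 in IVF and 17 and 7 in NT against donor cells. With Cy3 alone, 5 were higher and 1 lower in NT against AI and 35 higher in IVF against donor cells.

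In NT against AI, members higher were 3 with quantile normalisation, 3 with a common median absolute deviation, 2 with a value in every sample and 0 with the first spot alone. Without the AI embryos labelled H the counts were 2 higher and 3 lower, with NT embryos labelled 3_ alone 0 and 3, and with those labelled 2_ alone 1 lower. NT embryos labelled 2_ alone gave 13 higher and 7 lower against IVF embryos. In AI against donor cells, members lower were 4 with a value in every sample and 6 with 1 probe per gene. Leaving out a donor cell sample gave 16 to 20 higher in AI, 2 to 3 lower in IVF and 16 to 21 higher in NT against donor cells. The cause of these shifts was not tested. IVF and AI embryos share 7 label numbers. The replicate block on these embryos gave 4 members higher and 9 lower, against 6 and 12 in the same embryos without it. Deviations of same-numbered embryos correlated with r from -0.08 to 0.12, and 1 of 7 correlated best with its own number. These few embryos cannot show whether those of the same number share more than the number. The setting that allowed a value from either array, that which required both spots and that without IVF embryos 1 and 11 were chosen after seeing the data and moved no count by over 1.5 times.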
